A study of Mus musculus with 13 samples.

Results

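Abdominal interfollicular basal keratinocytes of pregnant Tbx3 conditional knockout mice were compared with those of non-pregnant wild type mice. The question was which changes of pregnancy are seen in the knockout. The comparison rests on 6 bulk RNA libraries out of 13 samples in the series. It takes 3 libraries of K14creERT2;Tbx3flox/flox mice at gestation day 16 (cKO) and 3 of WT mice that were not pregnant (NP), chosen by their labels. A further 3 WT libraries at gestation day 16 (WT dpc16) are given beside them, so that each gene can be read in pregnancy in WT and in cKO. Their columns are headed only as WT and were matched to that group by exclusion. All are of strain C57BL/6, and the basal cells were sorted from trypsin-treated skin as CD49f positive and CD34 negative. In the cKO the Cre recombinase is driven by the keratin 14 promoter and is active only after tamoxifen. The sources used here do not state whether or when the bulk mice received tamoxifen, nor which part of Tbx3 is removed. Genotype, Cre and pregnancy therefore change together between cKO and NP and cannot be told apart in that comparison. Between cKO and WT dpc16 genotype and Cre change together and cannot be told apart either. Nothing in the labels ties the 3 libraries of a group to separate mice, so a p-value here sets a difference against variation among libraries that may be purely technical.

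Tbx3 is a T-box transcription factor, a DNA-binding protein that mostly represses its targets and is known for its role in limb, heart and mammary gland development. Abdominal skin expands during pregnancy as the fetuses grow, and basal keratinocytes, which hold the stem and progenitor cells of the epidermis, divide to supply the new surface. Pregnancy also raises circulating prolactin, placental lactogens, oestrogen, progesterone and glucocorticoids, for each of which keratinocytes can carry receptors.

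Tbx3 itself (mm10 chromosome 5, 119670669 to 119684724) was measured first. It stood at 4.81, 1.65 and 4.89 FPKM (fragments counted per gene, adjusted for transcript length and sequencing yield) in cKO, at 16.96, 15.3 and 22.98 in WT dpc16 and at 8.96, 6.38 and 8.12 in NP. Every cKO library was the lowest, below every NP library as well as every WT dpc16 library. On the log2(FPKM + 1) scale the cKO minus NP difference was -0.96 (SE 0.31), which did not pass (limma adjusted p = 0.101). The cKO minus WT dpc16 difference was -2.09 (limma adjusted p = 0.0127). That call was lost without WT dpc16 library 3 (limma adjusted p = 0.0630). Transcript remained in each cKO library, and reads from exons outside the deleted part would be counted.

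Summed FPKM ran from 785636 to 847693 over the 9 libraries, and the sequencing depth behind it is unknown. Basal keratinocyte markers summed to 20850 to 28740 FPKM in cKO, 31990 to 35470 in WT dpc16 and 29800 to 39260 in NP, and all 7 of these markers were expressed. Suprabasal markers summed to 3150 to 4459 FPKM in cKO, 4736 to 13480 in WT dpc16 and 7504 to 8842 in NP. In the same order, hair follicle markers summed to 95.4 to 260.3, 57.3 to 161.4 and 118.7 to 894.8. Sebaceous markers summed to 68.08 to 145.8, 67.05 to 79.4 and 67.2 to 80.1. Langerhans and myeloid markers summed to 27.8 to 57.7, 22.97 to 31.2 and 39.9 to 52.2. Markers of further cell types differed as well. NP library 1 carried 33.4 FPKM of Merkel cell, 9.86 of fibroblast and 3.73 of endothelial markers, where no other library held over 0.709, 1.41 and 0.505. Summed smooth muscle markers were 1.60 to 2.82 FPKM in cKO and 6.97 to 10.4 in NP, skeletal muscle markers 5.18 to 13.7 and 17.4 to 45.0, and T cell markers 0.156 to 1.47 and 2.58 to 7.34. The endothelial marker Cdh5 and the erythroid marker Hbb-bs were at 0 in all 9 libraries. The part of these cells in the differences described here was not tested. In bulk RNA, fewer cells of a kind and less RNA per cell cannot be told apart.

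Pregnant cKO cells differed from NP cells in many genes. Of 11546 genes that averaged 1 FPKM or more over the 6 libraries, 650 passed the threshold, or 5.63% (limma on log2(FPKM + 1), 3 group means over all 9 libraries, Benjamini-Hochberg adjusted p under 0.05). Of these, 316 were higher in cKO and 334 lower. A total of 2741 genes (23.7%) had an unadjusted p under 0.05, and for 26.3% of all genes the 2 groups did not overlap. In the same fit 14 genes, or 0.121%, passed between WT dpc16 and NP, 11 higher in WT dpc16 (0.0953%) and 3 lower (0.026%). At an unadjusted p under 0.05 there were 1033 (8.95%). Between cKO and WT dpc16 244 genes passed, or 2.11%, with 141 higher in cKO (1.22%) and 103 lower (0.892%). These 3 comparisons share libraries, so their gene lists are not independent of each other. The count of 650 rests strongly on single libraries. Leaving out cKO library 1 gave 111 calls, and leaving out cKO library 2 gave 313. Leaving out NP library 2 gave 216 and NP library 3 gave 274. It was 384 and 331 without WT dpc16 library 1 or 2, which enter through the shared estimate of the spread. With only the 6 libraries compared it was 168.

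**Figure D1:**
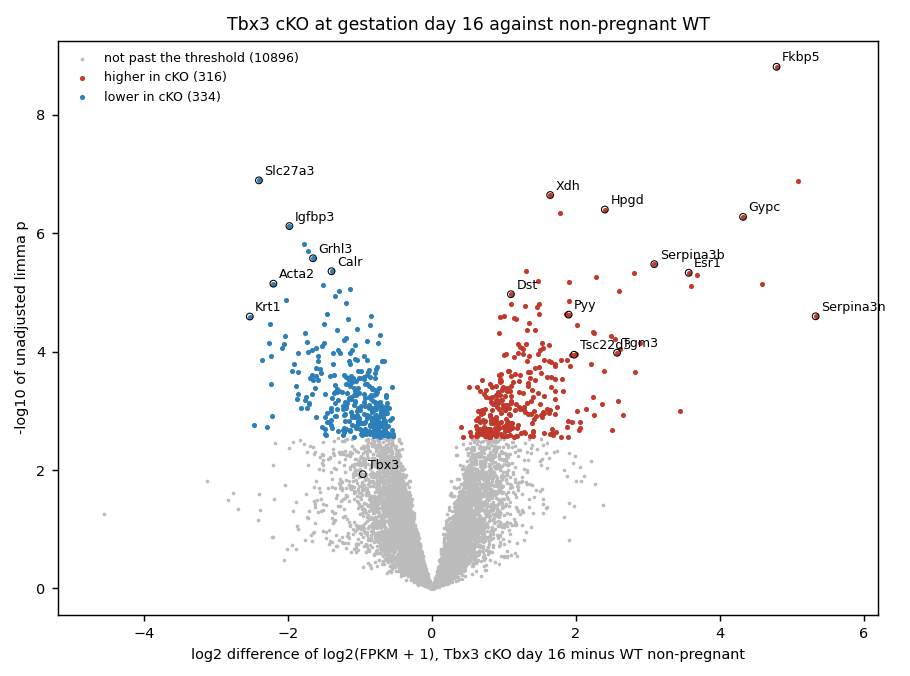
Each of the 11546 tested genes is 1 point, with the cKO minus NP difference of log2(FPKM + 1) on the x axis and -log10 of the unadjusted limma p on the y axis. Red points are the 316 genes higher in cKO, blue points the 334 lower, grey points the genes that did not pass, and circled genes are named in the text. Fkbp5 has the smallest p, at a difference of 4.79, and Tbx3 lies among the genes that did not pass.

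The genes called between WT dpc16 and NP behaved in different ways in cKO cells. Many of these WT calls rested on single libraries. Of the 9 fits that left out 1 library, the call was lost in 9 for Xdh and in 8 for Unc13b and Pkib. It was lost in 7 for Il4ra and Drc1, in 4 for Tgm3 and Deptor and in 1 for Serpina3b. Fkbp5, Pyy, Angptl4 and Prlr kept it in each fit. Since the genes described next were chosen for their WT dpc16 minus NP difference, that difference is a description here, and their cKO libraries carry the new information. Angptl4, Il4ra and Pkib lay near their NP level in cKO. Drc1 lay below its WT dpc16 level in cKO, with an interval against NP too wide to place it. Prlr and Deptor lay between the NP and the WT dpc16 level. Pyy, Tgm3, Serpina3b, Unc13b and Acta2 differed from NP in cKO as well, with no called difference between cKO and WT dpc16. Fkbp5 and Xdh were higher in cKO than in WT dpc16.

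Angptl4, a secreted inhibitor of lipoprotein lipase, stood at 4.61, 4.36 and 5.79 FPKM in cKO, 31.3, 44.8 and 29.04 in WT dpc16 and 3.88, 6.43 and 5.69 in NP. The cKO values overlapped those of NP and lay far below every WT dpc16 library. The cKO minus NP difference was -0.08 on the log2 scale (95% interval -0.60 to 0.43), and the cKO minus WT dpc16 difference -2.59 (SE 0.23, limma adjusted p = 0.00169). Il4ra, a chain of the interleukin 4 and interleukin 13 receptors, stood at 24.2, 14.6 and 28.6 FPKM in cKO, 79.2, 64.1 and 89.8 in WT dpc16 and 20.6, 20.5 and 27.7 in NP. Its cKO libraries spread around the NP values, with a cKO minus NP difference of -0.07 (-0.62 to 0.49) and a cKO minus WT dpc16 difference of -1.78 (limma adjusted p = 0.00970). Pkib, an inhibitor of protein kinase A, was lower in the WT dpc16 libraries than in the NP libraries. It had 124, 110.3 and 90.3 FPKM in cKO, 16.8, 40.98 and 25.1 in WT dpc16 and 125, 102 and 87.1 in NP, so that cKO cells held the NP amount. Its cKO minus NP difference was 0.05 (-0.58 to 0.68), against 2.01 for cKO minus WT dpc16 (limma adjusted p = 0.0101). Calls between cKO and WT dpc16 for Angptl4, Il4ra and Pkib held without any 1 library.

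Drc1, a regulator of ciliary dynein, stood at 1.51, 1.96 and 7.37 FPKM in cKO, 23.5, 11.6 and 33.3 in WT dpc16 and 2.03, 1.05 and 1.05 in NP. Here cKO library 3 lay above every NP library while the other cKO libraries overlapped them, and the interval of the cKO minus NP difference was wide, -0.31 to 1.84 around 0.76. The cKO minus WT dpc16 difference of -2.47 passed (limma adjusted p = 0.0336). It did not pass after leaving out WT dpc16 library 1, 2 or 3, NP library 2, or cKO library 1 or 2 (limma adjusted p = 0.122, 0.0531, 0.111, 0.0527, 0.125 and 0.101).

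The prolactin receptor Prlr (mm10 chromosome 15, 10177238 to 10349180) stood at 10.2, 13.9 and 13.05 FPKM in cKO, 29.8, 25.95 and 27.3 in WT dpc16 and 8.55, 7.57 and 6.21 in NP. The 3 groups did not overlap, with cKO in between and closer to NP. The cKO minus NP difference was 0.66 (SE 0.18, limma adjusted p = 0.0628), short of the threshold, and cKO minus WT dpc16 was -1.11 (limma adjusted p = 0.0175). That second call was lost without WT dpc16 library 1, 2 or 3 or cKO library 1 (limma adjusted p = 0.0798, 0.0669, 0.0684 and 0.0751). Deptor, an inhibitor of the mTOR kinase, showed the same order, with 7.48, 6.78 and 10.9 FPKM in cKO, 18.3, 15.6 and 20.7 in WT dpc16 and 5.31, 3.93 and 4.84 in NP. Its cKO minus NP difference was 0.71 (limma adjusted p = 0.0831) and its cKO minus WT dpc16 difference -1.05 (limma adjusted p = 0.0411). The second difference did not pass once any 1 of the WT dpc16 libraries, either of NP libraries 1 and 2, or either of cKO libraries 1 and 2 was left out, with limma adjusted p-values from 0.0527 to 0.145.

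The first of 3 promoter windows of Prlr in RefSeq is shown because it holds the letters GGTGTGA, the core of the DNA site that T-box proteins bind, once, starting 33 bases before the transcription start. The window covers 250 bases before to 50 after the start, chr15:10176988-10177287 on the plus strand of GRCm38.p6, with the core in capitals.
Prlr promoter: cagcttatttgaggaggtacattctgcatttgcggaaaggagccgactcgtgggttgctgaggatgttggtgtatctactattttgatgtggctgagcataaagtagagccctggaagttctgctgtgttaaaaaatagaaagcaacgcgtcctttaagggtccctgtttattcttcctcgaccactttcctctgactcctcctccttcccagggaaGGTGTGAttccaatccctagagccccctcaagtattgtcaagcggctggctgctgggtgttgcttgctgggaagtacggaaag
A match of these letters is a description of the sequence, and 3.98% of the 32851 promoter windows in the RefSeq table hold it on either strand.

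Pyy, peptide YY, a hormone of gut endocrine cells, stood at 174, 115 and 96.7 FPKM in cKO, 305, 239 and 193 in WT dpc16 and 31.004, 42.7 and 26.3 in NP. All cKO libraries lay above all NP libraries and below all WT dpc16 libraries. The cKO minus NP difference was 1.90 (SE 0.26, limma adjusted p = 0.00673), a call that held in each fit with 1 library left out. The cKO minus WT dpc16 difference was -0.95 (95% interval -1.53 to -0.37, limma adjusted p = 0.0915). Tgm3, an enzyme that crosslinks proteins of the cornified envelope, stood at 102, 49.8 and 78.4 FPKM in cKO, 112, 111 and 107 in WT dpc16 and 19.8, 4.84 and 15.4 in NP. Every cKO library was above every NP library, by 2.57 on the log2 scale (limma adjusted p = 0.0124, and 0.0534 without cKO library 1). The interval of its cKO minus WT dpc16 difference ran from -1.51 to 0.36. Serpina3b, a serine protease inhibitor whose reads can be shared with its Serpina3 paralogs, stood at 47.99, 54.98 and 126 FPKM in cKO, 55.7, 66.6 and 86.4 in WT dpc16 and 8.16, 8.56 and 5.49 in NP. It rose by 3.09 in cKO against NP (limma adjusted p = 0.00322), and the interval of cKO minus WT dpc16 was -0.73 to 0.77.

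Unc13b, a vesicle priming factor, stood at 3.18, 4.13 and 3.47 FPKM in cKO, 4.57, 4.01 and 4.29 in WT dpc16 and 12.03, 11.1 and 13.1 in NP. In cKO against NP it fell by 1.51 on the log2 scale (limma adjusted p = 0.00372), and the interval of cKO minus WT dpc16 was -0.61 to 0.20. Acta2, the actin of smooth muscle, stood at 0.451, 0.664 and 0.793 FPKM in cKO, 1.25, 1.07 and 1.12 in WT dpc16 and 6.203, 8.95 and 4.91 in NP. It was low everywhere and highest in NP, with a cKO minus NP difference of -2.20 (limma adjusted p = 0.00372). Acta2 is also among the smooth muscle markers whose sum was higher in NP than in cKO.

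Fkbp5, a co-chaperone of steroid receptors that glucocorticoids and progesterone induce, had the smallest p of all genes. It stood at 271, 157 and 179.6 FPKM in cKO, 44.7, 56.03 and 37.8 in WT dpc16 and 5.76, 5.28 and 7.73 in NP. The 3 groups were far apart, and the mean of cKO was 32.4 times that of NP. The cKO minus NP difference was 4.79 (SE 0.24, limma adjusted p = 1.8e-05), and cKO also exceeded WT dpc16 by 2.09 (limma adjusted p = 0.00442). Both calls held without any 1 library. Xdh, xanthine dehydrogenase, stood at 55.3, 54.1 and 59.8 FPKM in cKO, 31.7, 34.3 and 33.7 in WT dpc16 and 17.9, 18.2 and 16.2 in NP, in the same order and with little spread within a group. It rose by 1.64 in cKO against NP (SE 0.13, limma adjusted p = 0.000657). Its cKO minus WT dpc16 difference of 0.74 (limma adjusted p = 0.0254) did not pass without any 1 of the WT dpc16 libraries or cKO library 1 or 2, with limma adjusted p-values from 0.0658 to 0.111.

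**Figure D2:**
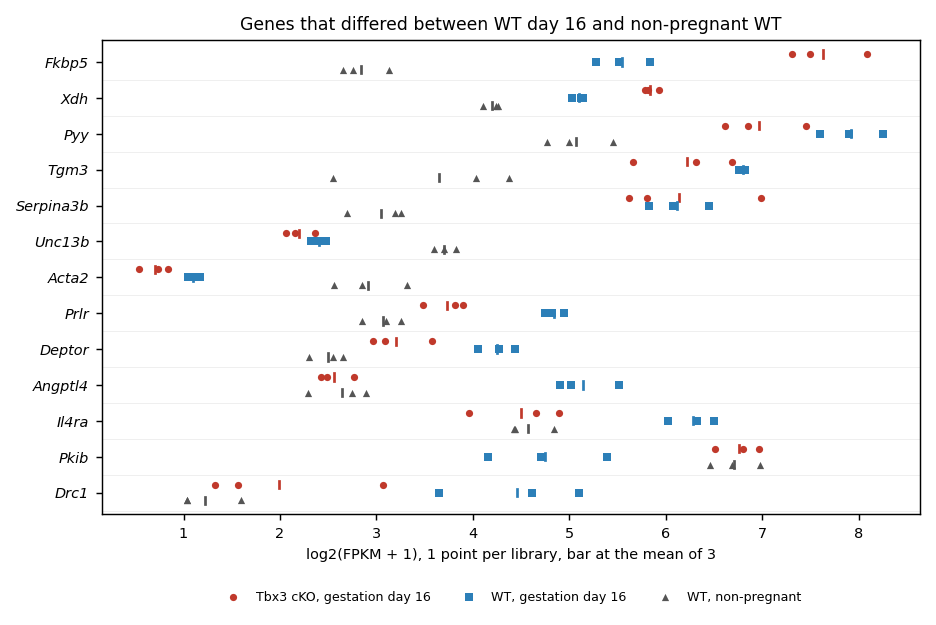
Expression as log2(FPKM + 1) on the x axis for 13 genes that passed between WT dpc16 and NP, with 1 point per library and a bar at each mean of 3. In each row cKO (red circles) is above WT dpc16 (blue squares) and NP (grey triangles). Angptl4, Il4ra and Pkib have cKO points among the NP points, while Fkbp5 and Xdh have cKO points beyond those of WT dpc16.

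Single-cell libraries of whole epidermis gave another reading of pregnancy in mice that keep Tbx3. These came from tamoxifen-treated Tbx3creERT2; R26H2B EGFP mice, with 1 library at gestation day 16 (74804602 unique molecular identifiers, UMIs, in 12984 barcodes) and 1 NP library (40450455 UMIs in 6635 barcodes). With 1 library each there is no test, and the intervals given are exact Poisson 95% intervals that cover counting error only. Between the 2 libraries 115 barcode sequences were shared. Tbx3 stood at 12.7 (11.9 to 13.5) CPM, UMIs per 1000000 UMIs of the library, at day 16 and 4.47 (3.85 to 5.18) in NP. Pyy stood at 117 (115 to 119.7) at day 16 and 24.8 (23.3 to 26.4) in NP, and Tgm3 at 94.1 (91.9 to 96.3) and 14.5 (13.4 to 15.8). Fkbp5 stood at 58.9 (57.2 to 60.7) CPM at day 16 and 23.1 (21.6 to 24.6) in NP, and Xdh at 19.1 (18.1 to 20.1) and 8.16 (7.30 to 9.09).

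Some genes had a mean in cKO bulk cells that lay closer to NP than to WT dpc16. Of these, Il4ra, Drc1, Prlr and Deptor were higher at day 16 in single cells, with log2 ratios of 0.96, 1.67, 0.60 and 1.48, and Pkib was lower, at -1.14. Angptl4 went the other way from the bulk WT libraries, with 7.27 (6.67 to 7.91) CPM at day 16 and 14.2 (13.03 to 15.4) in NP. Serpina3b stood at 34.05 (32.7 to 35.4) CPM at day 16 and 13.8 (12.7 to 15.01) in NP, and Unc13b at 4.01 (3.57 to 4.49) and 4.40 (3.78 to 5.10). Whole epidermis also holds suprabasal, follicular and immune cells, so these values are not restricted to basal cells.

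**Figure D3:**
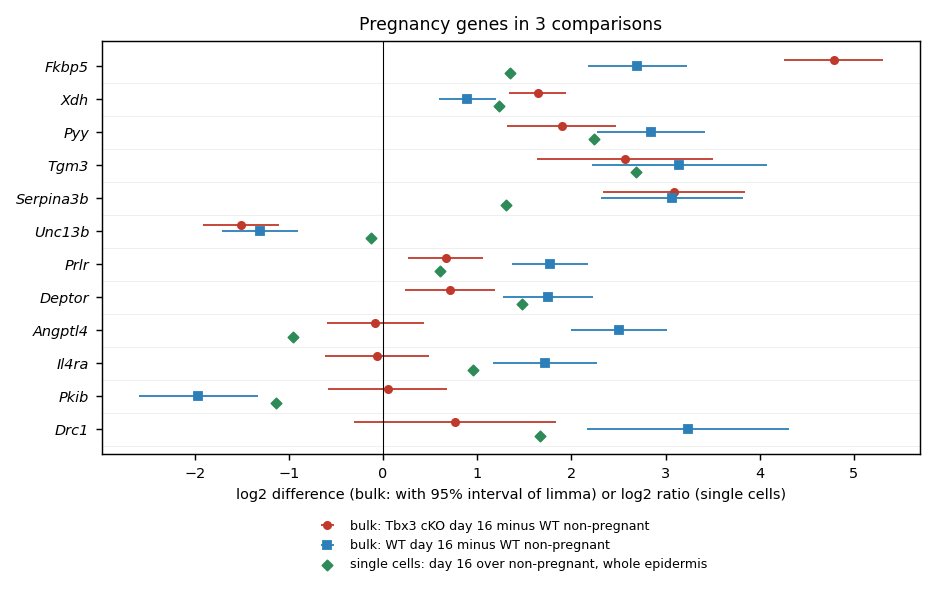
Differences on the log2 scale (x axis) for 12 genes that passed between WT dpc16 and NP in bulk cells, as cKO minus NP (red circles), WT dpc16 minus NP (blue squares), both with 95% intervals of limma, and as the ratio of day 16 over NP in the single-cell libraries (green diamonds, no test). Angptl4, Il4ra, Pkib and Drc1 have red intervals that span 0, and Angptl4 is the gene whose single-cell ratio (-0.96) has the opposite sign to its WT dpc16 value (2.51).

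The largest rises in cKO against NP included secreted protease inhibitors, membrane proteins and a steroid receptor. Serpina3n, a secreted serine protease inhibitor, stood at 272, 36.9 and 31.4 FPKM in cKO, 0, 1.139 and 0 in WT dpc16 and 0, 1.59 and 0.995 in NP. It was listed at 0 in some WT libraries and was at least 31.4 in each cKO library, a difference of 5.33 on the log2 scale (SE 0.73, limma adjusted p = 0.00673). Its paralog Serpina3j stood at 16.1, 34.4 and 42.7 FPKM in cKO, 7.25, 2.79 and 0.668 in WT dpc16 and 0.752, 0.0987 and 0 in NP (log2 4.58, limma adjusted p = 0.00372). Reads of the Serpina3 genes can be split between near-identical copies, so both values are uncertain. In the single-cell libraries, whose mice keep Tbx3, Serpina3n had 0.214 (0.122 to 0.347) CPM at day 16 and 0.297 (0.153 to 0.518) in NP.

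Gypc, a membrane glycoprotein known from red cells, stood at 11.5, 38.9 and 15.5 FPKM in cKO, 0, 0.126 and 0 in WT dpc16 and 0, 0 and 0.0310 in NP, so it was at or near 0 in each WT library. The erythroid markers Hba-a1 and Hbb-bs summed to no more than 2.53 FPKM in cKO. Gpnmb, a glycoprotein of melanosomes and lysosomes, stood at 123, 49.7 and 64.2 FPKM in cKO, 19.4, 7.37 and 8.63 in WT dpc16 and 5.52, 6.76 and 2.80 in NP, while melanocyte markers summed to 0.832 to 2.74 FPKM in cKO and 1.55 to 2.44 in NP. Esr1, the oestrogen receptor alpha, stood at 36.5, 72.3 and 19.3 FPKM in cKO, 9.18, 6.78 and 8.20 in WT dpc16 and 3.52, 1.66 and 1.79 in NP. All of its cKO libraries lay above the WT libraries of both states, with a cKO minus NP difference of 3.57 (SE 0.41, limma adjusted p = 0.00340) and a cKO minus WT dpc16 difference of 2.09 (limma adjusted p = 0.0336, and 0.130 without WT dpc16 library 2, with the call lost in 6 of 9 such fits). Spock2, an extracellular matrix proteoglycan, stood at 57.2, 37.4 and 36.6 FPKM in cKO, 10.4, 7.29 and 1.99 in WT dpc16 and 2.19, 2.12 and 3.71 in NP. Spink2, a Kazal-type protease inhibitor, stood at 27.04, 26.3 and 23.4 FPKM in cKO, 5.66, 7.68 and 7.42 in WT dpc16 and 1.87, 5.83 and 1.75 in NP. Calls against NP for Gypc, Gpnmb, Esr1, Spock2 and Spink2 held without any 1 library, with limma adjusted p-values of 0.000878, 0.00340, 0.00340, 0.00382 and 0.00340 in the fit of all 9 libraries.

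Fam161a, a protein of centrosomes and cilia, rose by 2.89 on the log2 scale, and Angptl7, a secreted angiopoietin-like protein, by 2.82. Angptl7 stood at 18.5, 10.96 and 14.7 FPKM in cKO, 0.583, 1.02 and 0.860 in WT dpc16 and 0.344, 0.329 and 4.77 in NP, where NP library 3 stood apart from the other NP libraries. Cyp2b19, a cytochrome P450 of keratinocytes, rose by 2.62. Cd200, an immune-inhibitory membrane ligand, stood at 219, 77.01 and 74.6 FPKM in cKO, 31.8, 32.96 and 13.96 in WT dpc16 and 6.96, 2.42 and 35.8 in NP, with NP library 3 far above the other NP libraries, and that library also held the most of the hair follicle markers (895 FPKM, against 57.3 to 260.3 in the other 8). Pdk4, a kinase that switches off pyruvate dehydrogenase, stood at 36.1, 11.6 and 7.38 FPKM in cKO, 3.01, 6.49 and 1.35 in WT dpc16 and 3.40, 0.763 and 1.06 in NP. The Fam161a call held without any 1 library. Without cKO library 1 the limma adjusted p was 0.120 for Cd200, 0.105 for Pdk4, 0.0701 for Angptl7 and 0.0530 for Cyp2b19. Calls for Cd200 and Pdk4 were lost in 5 of the 9 fits that left out 1 library.

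The largest falls included the suprabasal keratins Krt1 and Krt77, the lipid-handling genes Slc27a3 and Fabp5, and Igfbp3. Krt1, the main keratin of the spinous layer, stood at 186, 160.5 and 427 FPKM in cKO, 1065, 1111 and 2027 in WT dpc16 and 1342, 1461 and 1268 in NP. Every cKO library lay below every WT library, with differences of -2.53 against NP (SE 0.35, limma adjusted p = 0.00673) and -2.51 against WT dpc16 (limma adjusted p = 0.00970). Krt77, another suprabasal keratin, stood at 155, 266 and 189 FPKM in cKO, 274, 368 and 893 in WT dpc16 and 880.2, 1056 and 889 in NP. It was lowest in cKO with WT dpc16 spread in between, a cKO minus NP difference of -2.24 (limma adjusted p = 0.0127, and 0.0540 without cKO library 1). Summed suprabasal markers were 3150 to 4459 FPKM in cKO, 4736 to 13480 in WT dpc16 and 7504 to 8842 in NP, and the share of suprabasal cells in each sort was not measured.

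Slc27a3, a fatty acid transport protein with acyl-CoA synthetase activity, stood at 21.1, 31.4 and 34.6 FPKM in cKO, 152, 154 and 171 in WT dpc16 and 167, 163 and 137 in NP. The WT groups overlapped and cKO lay far below both, with differences of -2.40 against NP (SE 0.19, limma adjusted p = 0.000500) and -2.44 against WT dpc16 (limma adjusted p = 0.000847). Igfbp3, which binds insulin-like growth factors, stood at 112, 122 and 169.97 FPKM in cKO, 427, 311 and 406 in WT dpc16 and 571, 544 and 469.7 in NP. It fell by 1.98 in cKO against NP (limma adjusted p = 0.00110). Fabp5, the epidermal fatty acid binding protein, stood at 11.5, 8.57 and 18.5 FPKM in cKO, 26.2, 22.6 and 36.6 in WT dpc16 and 55.6, 51.2 and 53.5 in NP, without overlap between the 3 groups, and fell by 2.04 against NP (limma adjusted p = 0.00517). Calls against NP for Krt1, Slc27a3, Igfbp3 and Fabp5 held without any 1 library.

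Vsnl1, a neuronal calcium sensor, stood at 0.793, 1.90 and 2.99 FPKM in cKO, 3.62, 3.26 and 2.98 in WT dpc16 and 7.57, 11.4 and 12.7 in NP, and Csrp2, a LIM domain protein, at 4.66, 3.44 and 4.83, 6.91, 8.43 and 15.97 and 31.5, 17.004 and 17.1. Both fell in cKO against NP, with differences of -2.05 and -2.06 on the log2 scale, and so did Ak1, an adenylate kinase, with -2.27. Lgals1, galectin-1, stood at 2.38, 1.75 and 2.82 FPKM in cKO, 1.142, 4.39 and 2.76 in WT dpc16 and 15.9, 11.6 and 8.61 in NP, so its cKO and WT dpc16 libraries overlapped below NP. Cotl1, an actin-binding protein, the histone gene Hist1h2bc, Hpgds, the prostaglandin D synthase of blood cells, and Calcb, a calcitonin gene-related peptide, fell, with differences of -2.22, -1.92, -2.48 and -1.89. Calls for Vsnl1, Csrp2 and Ak1 held without any 1 library. The limma adjusted p without cKO library 1 was 0.123 for Cotl1, 0.0583 for Hist1h2bc and 0.0596 for Lgals1, and without NP library 2 it was 0.117 for Hpgds and 0.0585 for Calcb.

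**Figure D4:**
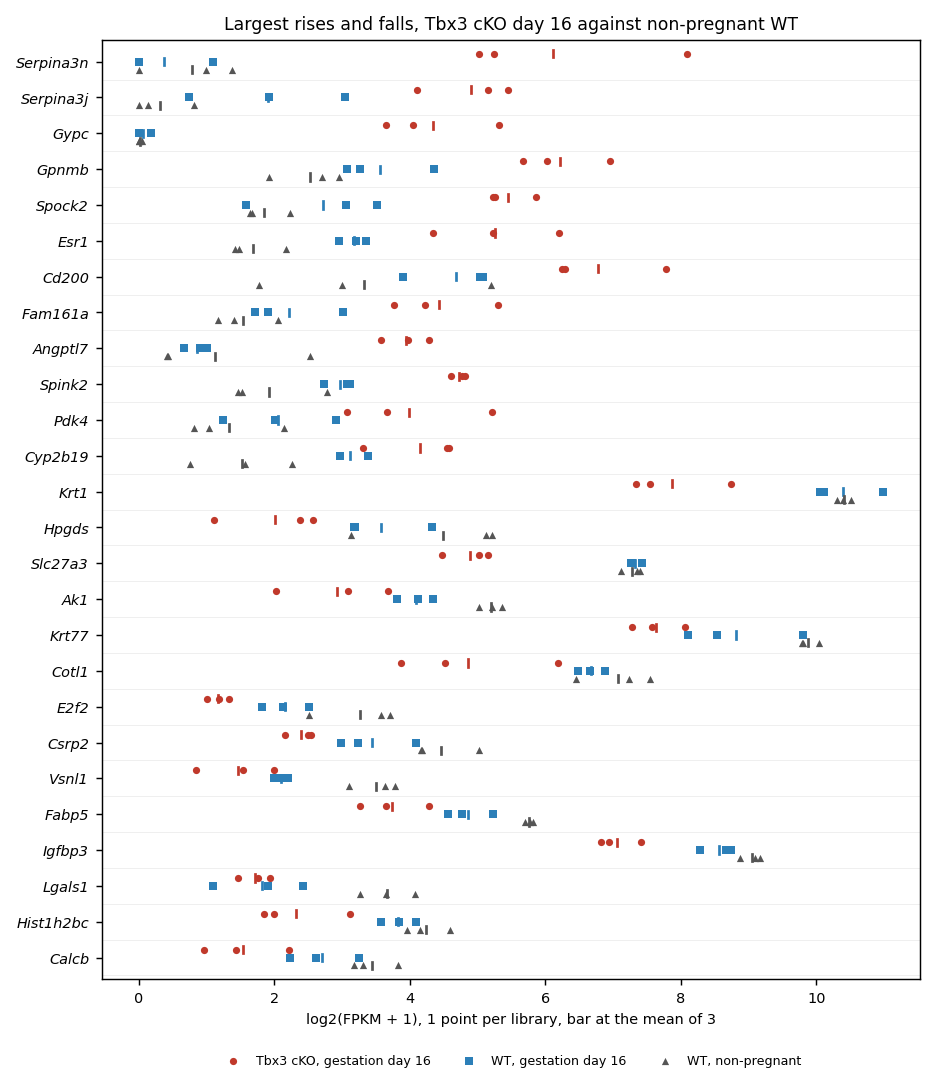
Expression as log2(FPKM + 1) on the x axis for 12 of the largest rises (top rows) and 14 of the 15 largest falls (bottom rows) in cKO against NP, with 1 point per library and a bar at each mean of 3, cKO in red circles, WT dpc16 in blue squares and NP in grey triangles. Serpina3n and Gypc have WT points near 0, and NP library 3 is the high grey point of Cd200.

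Genes were then read by lists of pathway members and cell type markers. These lists and their members were chosen with earlier results of these data known. A list share above that of all tested genes is therefore a description only. Over all tested genes 2.74% were called higher and 2.89% lower in cKO against NP, and the median difference was -0.02 on the log2 scale. Of 26 tested genes that glucocorticoids are known to induce, 7 rose in cKO against NP and 0 fell, with a median of 0.62, against 0.05 for WT dpc16 minus NP. Beside Fkbp5 these include Tsc22d3, which encodes the glucocorticoid-induced leucine zipper, Sgk1, a kinase that regulates ion transport, and Klf15, a transcription factor. Tsc22d3 stood at 734, 417 and 303 FPKM in cKO, 70.9, 116 and 61.8 in WT dpc16 and 124, 92.3 and 131 in NP. Its cKO libraries lay above all others while the WT groups were close to each other, with a cKO minus NP difference of 1.97 (SE 0.32, limma adjusted p = 0.0127). Sgk1 stood at 274, 142 and 149.97 FPKM in cKO, 75.7, 57.2 and 42.6 in WT dpc16 and 44.04, 36.4 and 69.9 in NP (log2 1.88, limma adjusted p = 0.0136, and 0.05005 without cKO library 1). Klf15 stood at 21.02, 9.17 and 8.25 FPKM in cKO, 3.32, 2.98 and 1.85 in WT dpc16 and 3.75, 2.36 and 4.13 in NP (log2 1.55, limma adjusted p = 0.0328, and 0.0975 without cKO library 1). Angptl4, also on the list, was at its NP level. In this list 2 members were called without cKO library 1, and 9 without cKO library 3.

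Sgk1 was the only gene of the 9011 tested genes with a RefSeq promoter window that held a full glucocorticoid response element, the palindrome bound by the glucocorticoid receptor, searched as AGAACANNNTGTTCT. The same letters occur in 3 of all 32851 windows. The window is shown for that reason, with the element in capitals, chr10:21993640-21993939 on the plus strand of GRCm38.p6. The element starts 189 bases before the transcription start, in 1 of 6 windows that RefSeq gives for Sgk1.
Sgk1 promoter: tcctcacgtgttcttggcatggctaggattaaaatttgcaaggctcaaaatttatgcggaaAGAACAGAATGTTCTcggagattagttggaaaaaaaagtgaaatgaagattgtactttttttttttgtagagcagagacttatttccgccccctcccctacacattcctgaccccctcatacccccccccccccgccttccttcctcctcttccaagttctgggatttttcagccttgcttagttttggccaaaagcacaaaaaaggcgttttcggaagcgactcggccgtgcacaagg
Response elements of glucocorticoid receptor targets often lie far from promoters, outside these windows.

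Among hormone receptors Esr1 rose and the other 17 tested members did not pass, with a list median of 0.30. Of 16 tested genes of the STAT5 and prolactin response, 3 rose and 0 fell. Socs2, a STAT5-induced inhibitor of cytokine signalling, stood at 13.5, 14.2 and 11.9 FPKM in cKO, 9.95, 14.1 and 18.6 in WT dpc16 and 6.94, 0.955 and 1.80 in NP, so that the pregnant libraries of both genotypes lay above NP. Its cKO minus NP difference was 2.01 (limma adjusted p = 0.0313), its WT dpc16 minus NP difference 2.07 (limma adjusted p = 0.154) and the interval of cKO minus WT dpc16 -1.04 to 0.92. Lifr, the receptor of leukemia inhibitory factor, stood at 51.03, 46.3 and 26.6 FPKM in cKO, 14.9, 13.1 and 12.5 in WT dpc16 and 12.8, 18.9 and 13.6 in NP (log2 1.36, limma adjusted p = 0.0182). The shared receptor chain Il6st rose by 0.93 (limma adjusted p = 0.0390). Without cKO library 1 the limma adjusted p was 0.104 for Socs2, 0.0702 for Lifr and 0.135 for Il6st, and without NP library 3 the list held 0 calls.

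Of 23 tested genes of insulin, FOXO and mTOR regulation 4 rose and 0 fell, with a median of 0.46. Pik3r1, the regulatory subunit of PI3 kinase, stood at 68.2, 55.2 and 38.5 FPKM in cKO, 26.9, 30.2 and 25.5 in WT dpc16 and 21.1, 16.5 and 19.3 in NP (log2 1.43, limma adjusted p = 0.00889). Sesn1, a stress-induced inhibitor of mTOR signalling, stood at 103, 57.9 and 46.7 FPKM in cKO, 19.2, 22.8 and 20.4 in WT dpc16 and 20.997, 18.9 and 22.005 in NP (log2 1.62, limma adjusted p = 0.0113). The transcription factors Foxo1 and Foxo3 rose by 0.82 and 1.09, but the Foxo1 call was lost in all 9 fits that left out 1 library and the Foxo3 call in 8 of 9 (limma adjusted p up to 0.161 and 0.148). Of 23 tested p53 targets 4 rose and 0 fell, with a median of 0.45. They were Sesn1, Trp53inp1, an autophagy and stress response protein that stood at 141, 80.1 and 70.3 FPKM in cKO, 31.98, 40.3 and 31.8 in WT dpc16 and 32.05, 27.9 and 14.5 in NP, the ribonucleotide reductase subunit Rrm2b, and the DNA damage sensor Ddb2. Rrm2b stood at 12.4, 13.1 and 10.4 FPKM in cKO, 10.9, 14.4 and 11.3 in WT dpc16 and 4.27, 7.36 and 4.65 in NP, with both pregnant groups above NP (limma adjusted p = 0.0290 for cKO against NP, and 0.101 without cKO library 1). Calls for Pik3r1, Sesn1 and Trp53inp1 held without any 1 library, and Ddb2 had a limma adjusted p of 0.0475, and 0.157 without cKO library 1.

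Of 20 tested clock genes 2 rose and 0 fell. The activator Npas2 rose by 1.56. Npas2 stood at 29.7, 25.99 and 17.5 FPKM in cKO, 13.1, 15.4 and 15.9 in WT dpc16 and 10.7, 7.33 and 5.15 in NP, without overlap between the 3 groups. Its limma adjusted p was 0.0136, and 0.0590 without cKO library 1. The sources used here do not state the hour of sampling.

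Basal keratinocyte genes did not move as a block. Of 18 tested members 1 rose and 3 fell, with a median of 0.13. Dst, which encodes the hemidesmosome protein BP230, stood at 718, 583 and 525 FPKM in cKO, 289, 271 and 288 in WT dpc16 and 288, 297 and 262 in NP. It was about equal in the WT groups and higher in each cKO library, by 1.10 against NP (SE 0.14, limma adjusted p = 0.00443). Lama5, a laminin chain of the basement membrane, stood at 281, 199 and 212 FPKM in cKO, 169.8, 175 and 128 in WT dpc16 and 83.3, 121 and 117 in NP (log2 1.10, limma adjusted p = 0.0181, and 0.0675 without cKO library 1). These were the 2 of 21 tested hemidesmosome and basement membrane genes that passed. Krt14, the basal keratin whose promoter drives the Cre, stood at 4259.5, 7408 and 4876 FPKM in cKO, 8324, 8206 and 8496 in WT dpc16 and 7563, 9390.4 and 11688 in NP (log2 -0.81, limma adjusted p = 0.0489, and 0.161 without cKO library 1). Ifitm3, an interferon-induced membrane protein that marks basal cells, fell by 0.84 (limma adjusted p = 0.0405, and 0.126 without cKO library 1).

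Of 29 tested suprabasal and cornified envelope genes 5 fell and 1, Tgm3, rose, with a median of -0.33. Grhl3, a transcription factor of barrier formation, stood at 4.72, 5.97 and 5.27 FPKM in cKO, 15.3, 16.5 and 14.7 in WT dpc16 and 18.8, 15.9 and 22.3 in NP. It was low in each cKO library, with differences of -1.65 against NP (limma adjusted p = 0.00279) and -1.39 against WT dpc16 (limma adjusted p = 0.00654), and the first call held without any 1 library. In this list 2 members were called without cKO library 1. Of follicle genes Foxn1, a transcription factor of hair and keratinocyte differentiation, stood at 1.03, 0.635 and 1.33 FPKM in cKO, 3.58, 3.80 and 6.46 in WT dpc16 and 4.63, 5.97 and 3.81 in NP (log2 -1.54, limma adjusted p = 0.0175, and 0.0601 without NP library 2). Sostdc1, an antagonist of BMP and Wnt signals, stood at 14.4, 25.7 and 44.1 FPKM in cKO, 49.7, 45.5 and 35.1 in WT dpc16 and 66.99, 92.2 and 142 in NP (log2 -1.87, limma adjusted p = 0.0241, and 0.0703 without NP library 3, the library with the most hair follicle markers).

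The secreted Wnt ligands Wnt3, Wnt10b and Wnt5a fell in cKO against NP. Of 25 tested Wnt pathway genes 5 fell and 0 rose, with a median of -0.36. Wnt3 stood at 31.9, 36.5 and 41.7 FPKM in cKO, 68.99, 67.3 and 73.6 in WT dpc16 and 78.5, 93.9 and 115 in NP, and the cKO libraries lay well below both WT groups (log2 -1.35 against NP, limma adjusted p = 0.00467). Wnt10b stood at 3.54, 4.51 and 4.74 FPKM in cKO, 8.45, 7.65 and 8.88 in WT dpc16 and 7.99, 10.2 and 11.8 in NP. For Wnt5a and the R-spondin receptor Lgr6 both pregnant groups lay below NP. Wnt5a stood at 6.07, 8.19 and 4.66 FPKM in cKO, 5.46, 4.88 and 6.11 in WT dpc16 and 13.2, 15.7 and 13.4 in NP, and Lgr6 at 14.98, 10.9 and 21.5, 18.2, 14.7 and 16.98 and 35.001, 34.04 and 30.6. The limma adjusted p for cKO against NP was 0.0194 for Wnt10b, 0.0231 for Wnt5a and 0.0271 for Lgr6. Without cKO library 1 it was 0.0740, 0.0789 and 0.0911, while the Wnt3 call held without any 1 library.

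In the Notch list the ligand Dll1 rose by 0.79 and the receptor Notch3 fell by 1.03 (limma adjusted p = 0.0483 and 0.0170, and 0.161 and 0.0596 without cKO library 1). Tgfbi, a TGF-beta-induced matrix protein, rose, with 837, 714 and 793 FPKM in cKO, 551, 476 and 467 in WT dpc16 and 542, 473 and 438 in NP (limma adjusted p = 0.0188, and 0.0702 without cKO library 1). The YAP targets Crim1 and Nt5e rose by 0.96 and 1.11, and the matrix metalloproteinase Mmp14 by 0.83 (limma adjusted p = 0.0268, 0.0391 and 0.0253). The limma adjusted p without cKO library 1 was 0.0902 for Crim1 and 0.0880 for Nt5e, and without NP library 2 0.0799 for Mmp14. Plxnd1, a semaphorin receptor, stood at 3.83, 2.10 and 7.11 FPKM in cKO, 44.2, 35.3 and 47.4 in WT dpc16 and 9.95, 14.98 and 9.64 in NP. Its cKO libraries lay below NP (limma adjusted p = 0.0454, and 0.134 without cKO library 1) and its WT dpc16 libraries above, so that the cKO minus WT dpc16 difference was -3.12 (limma adjusted p = 0.00325). Il1rn, the interleukin 1 receptor antagonist, stood at 44.8, 62.3 and 36.2 FPKM in cKO, 50.3, 56.8 and 95.1 in WT dpc16 and 129, 185 and 166 in NP, and fell by 1.74 against NP (limma adjusted p = 0.0113).

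Several glycolytic genes fell in cKO against NP. Of 28 tested genes of glycolysis and the hypoxia response 7 fell and 0 rose, with a median of -0.68. The median for WT dpc16 minus NP was -0.48, with 0 calls by limma. In that comparison 13 of the list had an unadjusted p under 0.05, beside 8.95% of all tested genes. The enzymes Pkm, Tpi1 and Eno1 gave differences of -1.20, -1.31 and -1.11, and the cytokine Mif -0.84. Pkm, pyruvate kinase, stood at 130.2, 238 and 135 FPKM in cKO, 209.8, 227 and 224 in WT dpc16 and 378, 318 and 426 in NP (limma adjusted p = 0.0182). The enolase Eno1 stood at 113, 239 and 195 FPKM in cKO, 266, 226 and 335 in WT dpc16 and 381, 361 and 393 in NP (limma adjusted p = 0.0337), with cKO library 2 inside the WT dpc16 range. This count depended on single libraries, with 0 called without NP library 3 and 13 without cKO library 2.

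Of 23 tested cholesterol synthesis genes 3 fell and 1 rose. Hmgcs1, the enzyme that makes HMG-CoA for the pathway, stood at 189.9, 199.5 and 186 FPKM in cKO, 135, 128 and 126 in WT dpc16 and 105, 102 and 79.9 in NP. Its 3 groups did not overlap, and it rose by 1.004 (SE 0.14, limma adjusted p = 0.00673). Later enzymes went down, with Fdps at 24.1, 47.9 and 31.2 FPKM in cKO, 39.2, 41.03 and 46.3 in WT dpc16 and 71.2, 65.4 and 83.8 in NP, and Sqle and Sc5d with differences of -1.15 and -0.84. Without cKO library 1 the limma adjusted p was 0.0799 for Fdps, 0.0959 for Sqle and 0.129 for Sc5d, while the Hmgcs1 call held without any 1 library. Of 27 tested genes of fatty acid and barrier lipid metabolism 4 fell and 2 rose, and 1 was called without cKO library 1. Scd2, a fatty acid desaturase, fell by 1.70, and Elovl4, which elongates the very long chain fatty acids of barrier ceramides, fell by 1.35 (limma adjusted p = 0.0182 and 0.0234). Aloxe3, an epidermal lipoxygenase, rose by 2.14 (limma adjusted p = 0.0308). Without cKO library 1 it was 0.0675 for Scd2 and 0.105 for Aloxe3, and without NP library 2 0.0683 for Elovl4.

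In the prostaglandin list Hpgd rose while Ptgs1 and Hpgds fell. Hpgd, which breaks prostaglandins down, stood at 43.8, 37.6 and 33.9 FPKM in cKO, 5.72, 4.52 and 5.34 in WT dpc16 and 6.32, 8.50 and 4.89 in NP. The WT groups overlapped and each cKO library was several times higher, with differences of 2.40 against NP (SE 0.21, limma adjusted p = 0.000870) and 2.67 against WT dpc16 (limma adjusted p = 0.000847). Ptgs1, the cyclooxygenase COX-1 that starts their synthesis, stood at 18.1, 20.2 and 20.9 FPKM in cKO, 30.2, 35.4 and 52.2 in WT dpc16 and 42.9, 39.3 and 53.6 in NP, and fell by 1.15 (limma adjusted p = 0.0182, and 0.0702 without cKO library 1). With Hpgds, these were the 3 of 14 tested members that passed.

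Of 22 tested genes of the unfolded protein and amino acid response 4 fell and 2 rose. The calcium-binding chaperone Calr stood at 176, 201 and 205 FPKM in cKO, 308, 386 and 358 in WT dpc16 and 441, 481 and 627 in NP, without overlap between the 3 groups (log2 -1.40 against NP, limma adjusted p = 0.00340). The protein disulfide isomerase Pdia6 stood at 60.4, 58.9 and 56.9 FPKM in cKO, 101, 107 and 102 in WT dpc16 and 116, 125 and 155 in NP (log2 -1.15, limma adjusted p = 0.00406). Slc3a2, the heavy chain of large neutral amino acid transporters, stood at 515, 446 and 451 FPKM in cKO, 291, 319 and 275 in WT dpc16 and 218, 257 and 188 in NP (log2 1.10, limma adjusted p = 0.00538). Calls for Calr, Pdia6 and Slc3a2 held without any 1 library. The heat shock protein Hsph1 fell by 1.02, the single call among 26 immediate early and heat shock genes, whose median was 0.56 (limma adjusted p = 0.0236, and 0.0740 without NP library 2).

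Several genes of DNA replication fell in cKO against NP. Of 44 tested S phase genes 6 fell and 0 rose in cKO against NP, with a median of -0.58. For WT dpc16 minus NP the median was -0.65, with 0 calls by limma. In that comparison 24 of the list had an unadjusted p under 0.05, beside 8.95% of all tested genes. The list held 2 calls between cKO and NP without cKO library 1. Mcm3, a subunit of the replicative helicase, stood at 9.10, 9.69 and 10.7 FPKM in cKO, 10.6, 10.3 and 12.2 in WT dpc16 and 24.6, 20.4 and 25.3 in NP. The pregnant groups were close together, and each of their libraries lay below each NP library (log2 -1.17 for cKO minus NP, limma adjusted p = 0.00685, and -1.02 for WT dpc16 minus NP, limma adjusted p = 0.0598). Uhrf1, which maintains DNA methylation at replication, stood at 5.07, 8.67 and 10.1 FPKM in cKO, 12.4, 10.003 and 17.9 in WT dpc16 and 23.2, 30.6 and 26.6 in NP (log2 -1.67, limma adjusted p = 0.0121). Cyclin E1, Ccne1, fell by 1.58 and Mcm5 fell by 1.46, and without cKO library 1 their limma adjusted p was 0.0675 and 0.130. In the single-cell libraries Mcm3 stood at 8.34 (7.70 to 9.02) CPM at day 16 and 4.99 (4.33 to 5.73) in NP, the other way round. Uhrf1, Ccne1 and Mcm5 were also higher at day 16 there, with log2 ratios of 0.47, 1.69 and 0.45. Of 57 tested G2 and mitosis genes 1, Rangap1, a regulator of nuclear transport, fell, with a list median of -0.37 (limma adjusted p = 0.0481, and 0.156 without cKO library 1).

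E2f2, a transcription factor that activates replication genes, was among the 15 largest falls. It stood at 1.002, 1.27 and 1.51 FPKM in cKO, 3.37, 2.54 and 4.72 in WT dpc16 and 10.9, 4.69 and 12.04 in NP, with the lowest values in cKO (log2 -2.09 against NP, limma adjusted p = 0.0120, and 0.0503 without cKO library 1). It was the only one of the 14 largest falls described here that held the T-box core in a RefSeq promoter window, among 7 with a window. The window is shown for its pair of matches, in capitals, starting 207 and 127 bases before the start, chr4:136180532-136180831 on the plus strand of GRCm38.p6. This window lies inside the gene, which GENCODE M21 starts at 136172394. Another RefSeq window of E2f2, chr4:136172024-136172323, lies upstream of that gene start and held 0 matches.
E2f2 promoter: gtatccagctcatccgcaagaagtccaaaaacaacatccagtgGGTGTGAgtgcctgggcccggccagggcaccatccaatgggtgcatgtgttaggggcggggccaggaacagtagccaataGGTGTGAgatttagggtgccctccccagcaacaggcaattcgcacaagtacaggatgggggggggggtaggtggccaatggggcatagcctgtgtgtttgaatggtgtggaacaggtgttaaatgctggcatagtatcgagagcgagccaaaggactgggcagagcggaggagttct
Across all calls the T-box core, GGTGTGA or TCACACC on the other strand, was in the windows of 16 of 260 genes called higher (6.15%) and 10 of 258 called lower (3.88%), and in 4.07% of the 9011 tested genes with a window. None of 13 largest rises with a window held it.

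Ribosomal protein genes moved little but mostly in 1 direction. Of 76 tested members 65 lay above 0 and 11 below, with a median of 0.16, and 3 were called. Rpl6 stood at 2009, 2055 and 1879.6 FPKM in cKO, 1585, 1717 and 1396 in WT dpc16 and 1419, 1159 and 1291 in NP (log2 0.62, limma adjusted p = 0.0215, and 0.0716 without NP library 2). Rpl6 has processed pseudogene copies that can share its reads, as have Rpl4 and Rps14, the other members called, and without NP library 2 0 members of the list were called. With quantile normalization the list median was 0.07, and the calls for Rpl6, Rpl4 and Rps14 were lost. The Rps14 call was also lost with libraries scaled to equal sums.

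**Figure D5:**
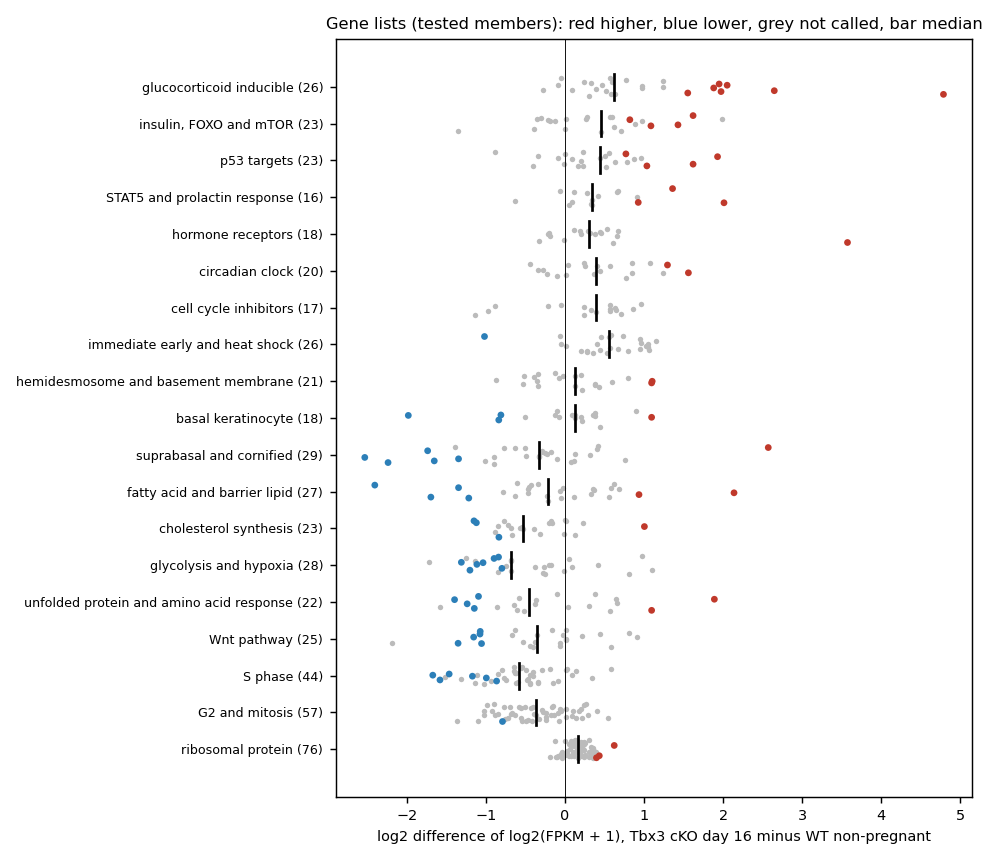
The cKO minus NP difference of log2(FPKM + 1) (x axis) for each tested member of 19 gene lists (rows, number tested in brackets), red where called higher, blue where called lower, grey where not called, with a black bar at the list median; the vertical position within a row is random. Called members of the glucocorticoid, FOXO, p53 and STAT5 lists all lie above 0, and those of the glycolysis, Wnt and S phase lists all lie below 0.

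Many calls within the lists rested on more than the 1 library named beside them. Of the 9 fits that left out 1 library, the call was lost in 9 for Rpl4. It was lost in 8 for Rps14, Dll1, Nt5e, Plxnd1, Sc5d and Ddb2. The call was lost in 7 for Krt14, Ifitm3, Il6st, Rangap1 and Hpgds, and in 6 for Klf15, Mcm5 and Eno1. List counts moved as well. The prostaglandin list held 1 call without cKO library 1, the unfolded protein list 3, the hemidesmosome list 1, and the Notch and clock lists 0. Without NP library 2 the Wnt and cholesterol lists held 1 call each, and without NP library 1 the p53 list held 2 and the YAP list 0. Without WT dpc16 library 1, which enters through the shared estimate of the spread, the basal keratinocyte list and the insulin, FOXO and mTOR list held 2 each.

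Among genes that mark other cells, Sparc and Thbs2 were called in the fibroblast list and fell. Sparc, a collagen-binding matrix protein that keratinocytes also express, stood at 17.1, 35.03 and 33.3 FPKM in cKO, 89.8, 95.4 and 83.4 in WT dpc16 and 87.7, 82.7 and 72.2 in NP, and the matrix glycoprotein Thbs2 at 11.9, 25.5 and 21.3, 58.7, 60.1 and 60.5 and 52.6, 46.01 and 51.97. Both were even across the WT libraries and lower in each cKO library, with differences of -1.53 and -1.38 against NP (limma adjusted p = 0.0117 and 0.0146). The 6 fixed fibroblast markers, which hold the collagens Col1a1, Col1a2 and Col3a1, summed to 0.754 to 1.41 FPKM in cKO, 0.234 to 0.505 in WT dpc16 and 0.438 to 9.86 in NP. Mcam, a cell adhesion molecule of pericytes and other cells, stood at 26.03, 44.1 and 19.6 FPKM in cKO, 4.88, 2.99 and 4.43 in WT dpc16 and 8.11, 9.74 and 6.35 in NP, and rose by 1.71 (limma adjusted p = 0.0146, and 0.0523 without cKO library 1), while summed smooth muscle markers were lower in cKO than in NP. The lists of T cell, Langerhans and myeloid, melanocyte, Merkel cell, endothelial, skeletal muscle, adipocyte, erythroid, sebaceous, stress keratin, interferon, MHC class I, mitochondrially encoded, metallothionein, oxidative stress, cell cycle inhibitor and T-box genes held 0 called members by limma. In these 17 lists 29 of 121 tested genes had an unadjusted p under 0.05, 10 of them higher in cKO. The share over all tested genes was close to this, at 23.7%. Single calls came from Cd200 in the bulge list, Sostdc1 in that of the upper follicle, Foxn1 in that of the hair shaft, Igfbp3 among 8 IGF binding proteins, Plxnd1 among 10 angiogenic factors and Il1rn among 20 chemokines and cytokines. Of 21 tested genes of fatty acid oxidation and PPAR signalling 2 rose, Pdk4 among them, and 1, Fabp5, fell.

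Called genes were spread over the genome. The share called ran from 2.89% on the X chromosome to 7.85% on chromosome 10 among chromosomes with over 100 tested genes, and it was 5.27% on chromosome 5, which carries Tbx3. Within 5 Mb of Tbx3 4 of 119 tested genes were called (3.36%), and within 20 Mb 20 of 340 (5.88%), beside 5.63% of all tested genes.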

How the data were processed

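Bulk values were deposited by the authors as FPKM for 21950 genes. Per the submitters' processing notes, cutadapt 1.14, TopHat2, Cufflinks 2.2.1, Cuffdiff and the mm10 build were used. The sources used here state neither their settings nor how libraries were scaled. The library kit was stranded, per the labels' protocols. The columns headed WT were taken as WT dpc16 by exclusion, and libraries are numbered by column order. Single-cell files hold raw UMI counts that the authors deposited after Cell Ranger 2.2.0, per the submitters' processing notes. These counts were summed over all barcodes, with no further filter and no removal of doublets, as counts per 1000000 UMIs (CPM).

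Genes averaging 1 FPKM or more over the 6 cKO and NP libraries were tested on log2(FPKM + 1), which understates the change of low genes. limma 3.58.1 in R 4.3.3 fitted 3 group means over 9 libraries with a trend and two-sided tests, tested on simulated data first, with Benjamini-Hochberg adjustment over all 11546 genes at 0.05. Named genes are Tbx3, the 15 largest rises and 15 largest falls (called, mean of at least 5 FPKM, no overlap), genes called between WT dpc16 and NP, and up to 4 members with the smallest p per list. A few genes under this rule are not reported here. The 49 lists and the members were chosen with earlier results of these data known. Positions are from GENCODE M21, and promoter windows from RefSeq (GRCm38.p6), matched by symbol. Alternatives changed the pseudocount, filter, scaling, trend, weights and libraries. No sets were tested.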

Additional observations from a re-analysis of the deposited data

How the results depend on the processing

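The count of 650 genes called between cKO and NP was 617 to 661 with pseudocounts of 0.1 or 5, a filter of 5 FPKM or over all 9 libraries, libraries scaled to equal sums, quantile normalization, median centring or robust hyperparameters. It was 514 with array weights, 425 without a trend, 314 without the filter on low values and 168 with only the 6 libraries compared. The other 2 comparisons, WT dpc16 against NP (14) and cKO against WT dpc16 (244), gave 9 and 87 without the filter, 40 and 775 with array weights, and 11 and 153 without a trend. Leaving out 1 library at a time gave 111 to 728, 5 to 13 and 41 to 396 calls in the 3 comparisons, cKO against NP first. Of 95 named genes called between cKO and NP, 38 kept their call in all 9 of these fits and 37 under every alternative. Column numbers did not pair cKO with NP by the check on same-numbered deviations, where every pair had to pass 0.1 (correlations of -0.042, 0.038 and -0.074). Between WT dpc16 and NP they were -0.07, -0.068 and -0.211. Between cKO and WT dpc16 they were 0.312, 0.071 and 0.356, so libraries 1 and 3 passed and library 2 did not. Across numbers, cKO library 1 with WT dpc16 library 3 gave -0.333, and cKO library 3 with WT dpc16 library 1 gave -0.286. The mitochondrial share of summed FPKM was 1.73% and 2.17% in library 1 of cKO and WT dpc16, and 6.03% and 6.16% in library 3. A shared batch was not tested. With the column number as a replicate block the counts were 552, 10 and 199. The sign of Serpina3b between cKO and WT dpc16 turned with equal sums (-0.0385) and median centring (-0.0079), and ran from -0.4079 to 0.28 over fits without 1 library. Over the same fits the cKO minus NP difference changed sign for 8 uncalled genes: Angptl4 (-0.2602 to 0.0436), Il4ra (-0.259 to 0.2031), Pkib (-0.0754 to 0.1852), Krt79 (-1.4147 to 0.0662), Tchh (-0.2621 to 0.0807), Pmel (-0.3827 to 0.0937), Egfl7 (-0.0206 to 0.8862) and mt-Nd6 (-0.0427 to 0.7044). The causes were not tested. Medians of the MHC class I, fatty acid oxidation and mitochondrially encoded lists changed sign with the scaling. Depth is unknown, so no counting error could be given for bulk values.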

Other observations

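Cd3g, Mylpf and Cdkn1b did not pass between cKO and NP, and no cKO library lay within the range of the NP libraries. Such a lack of overlap was common, at 26.3% of all tested genes, while 5.63% passed. The T cell receptor component Cd3g stood at 0.709, 0 and 0.117 FPKM in cKO, 0.693, 0.123 and 0.635 in WT dpc16 and 1.42, 3.34 and 2.11 in NP (limma adjusted p = 0.0541 for cKO against NP). Mylpf, a myosin light chain of skeletal muscle, stood at 4.82, 7.87 and 13.7 FPKM in cKO, 15.7, 5.87 and 17.4 in WT dpc16 and 39.4, 17.4 and 44.98 in NP (limma adjusted p = 0.0533). Cdkn1b, which encodes the cyclin-dependent kinase inhibitor p27, stood at 60.3, 45.9 and 51.7 FPKM in cKO, 28.6, 30.1 and 34.8 in WT dpc16 and 38.8, 30.96 and 30.6 in NP (limma adjusted p = 0.0539). For Vegfa, the vascular endothelial growth factor, cKO library 2 lay among the NP libraries and the other cKO libraries far below, at 7.92, 34.6 and 7.68 FPKM in cKO, 26.9, 30.5 and 18.97 in WT dpc16 and 35.8, 28.4 and 33.7 in NP (log2 -1.26 for cKO minus NP, limma adjusted p = 0.137).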
